A study of Homo sapiens with 2 samples.

Results

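The genes described here are the 240 protein-coding genes of human chromosome 19 whose symbol is ZNF followed by digits, out of 19974 protein-coding genes on chromosomes 1 to 22 and X (RefSeq, GRCh38.p14). A gene was given a peak when the summit of one fell inside it or no more than 10 kb away. By that measure 35 of the 240 had a peak and 205 had none. The study was made in F36P, a human erythroleukaemia cell line. One culture carried the retroviral vector MSCV-PIG with AM-tagged ERG, a transcription factor of the ETS family (AM-ERG, genotype labelled as ERG overexpression), and the other carried the empty MSCV-PIG (Vector, genotype labelled WT). Both were kept for 4 days in 1 µg/ml puromycin, and chromatin cut with micrococcal nuclease went into a precipitation with an anti-tag antibody. Each group is 1 library, and the data are 1 list of 1645 peaks on hg38, so no value has a replicate error, AM-ERG and Vector were not tested against each other, and all comparisons are between genes within that list. The tag is on ERG made from the vector and not on the cell's own ERG. The labels do not say which library gave the peaks or whether the other served as their control.

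Most ZNF genes of chromosome 19 encode proteins with a row of C2H2 zinc fingers, each finger contacting a few bases of DNA, and many also carry a KRAB domain. KRAB binds the corepressor TRIM28 (KAP1), which brings the histone methyltransferase SETDB1 and heterochromatin proteins, and these proteins are known for silencing transposable elements. The genes arose by repeated tandem duplication, so that they stand in clusters of related copies. ETS factors such as ERG recognise DNA with a GGAA core, most strongly with CCGGAA or close variants.

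The starts of these genes often hold that core, with or without a peak. The sequences printed next are RefSeq promoter windows of GRCh38.p14, from 250 bases before the annotated start to the first 30 after it, 5′ to 3′ on the gene's strand, with each CCGGAA on either strand (read as TTCCGG on the other) in capitals. The first 5 are shown because the summit itself lies in the printed stretch or at most 2 bases past it. ZNF549 is shown for the highest fold at a start and ZNF136 for the highest pileup. ZNF175 and ZNF737 are the first genes whose window holds the core in the 2 largest clusters that had no peak.
ZNF180, chr19:44500493-44500772, minus strand, summit 80 bp before the start: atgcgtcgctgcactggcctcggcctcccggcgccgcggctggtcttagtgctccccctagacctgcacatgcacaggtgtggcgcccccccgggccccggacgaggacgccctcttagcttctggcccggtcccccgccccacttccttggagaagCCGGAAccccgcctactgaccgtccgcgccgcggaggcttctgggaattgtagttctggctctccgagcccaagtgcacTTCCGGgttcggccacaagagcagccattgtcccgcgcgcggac
ZNF470, chr19:56567218-56567497, plus strand, summit 11 bp after the start: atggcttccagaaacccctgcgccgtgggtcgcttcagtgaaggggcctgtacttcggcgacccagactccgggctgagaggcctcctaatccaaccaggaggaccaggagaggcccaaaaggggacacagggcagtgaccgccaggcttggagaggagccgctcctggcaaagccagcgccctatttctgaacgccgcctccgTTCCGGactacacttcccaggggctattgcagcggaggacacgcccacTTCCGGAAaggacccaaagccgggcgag
ZNF544, chr19:58228664-58228943, plus strand, summit 31 bp after the start: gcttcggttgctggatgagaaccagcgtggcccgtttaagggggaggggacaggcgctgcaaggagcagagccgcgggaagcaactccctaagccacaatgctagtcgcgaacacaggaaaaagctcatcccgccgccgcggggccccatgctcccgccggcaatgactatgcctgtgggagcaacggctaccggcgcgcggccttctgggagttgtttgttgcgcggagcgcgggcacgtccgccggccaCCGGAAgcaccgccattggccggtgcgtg
ZNF558, chr19:8832275-8832554, minus strand, summit 29 bp after the start: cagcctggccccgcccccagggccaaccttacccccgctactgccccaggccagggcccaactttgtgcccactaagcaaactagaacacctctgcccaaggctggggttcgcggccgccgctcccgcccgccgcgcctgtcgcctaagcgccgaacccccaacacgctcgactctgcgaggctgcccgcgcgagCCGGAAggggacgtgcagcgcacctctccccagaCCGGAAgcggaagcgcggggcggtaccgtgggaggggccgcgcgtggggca
ZNF561, chr19:9621203-9621482, minus strand, summit 45 bp before the start: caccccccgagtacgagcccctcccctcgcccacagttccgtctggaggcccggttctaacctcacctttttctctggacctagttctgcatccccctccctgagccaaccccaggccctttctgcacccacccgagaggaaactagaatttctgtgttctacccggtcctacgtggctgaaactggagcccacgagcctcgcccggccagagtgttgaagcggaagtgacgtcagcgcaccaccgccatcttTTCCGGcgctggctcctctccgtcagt
ZNF549, chr19:57527106-57527385, plus strand, summit 83 bp after the start: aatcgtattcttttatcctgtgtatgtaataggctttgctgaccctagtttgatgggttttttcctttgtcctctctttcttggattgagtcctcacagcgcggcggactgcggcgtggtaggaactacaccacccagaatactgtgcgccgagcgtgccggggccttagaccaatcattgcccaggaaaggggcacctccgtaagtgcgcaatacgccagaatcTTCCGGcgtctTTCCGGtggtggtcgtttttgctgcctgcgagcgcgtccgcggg
ZNF136, chr19:12162846-12163125, plus strand, summit 153 bp after the start: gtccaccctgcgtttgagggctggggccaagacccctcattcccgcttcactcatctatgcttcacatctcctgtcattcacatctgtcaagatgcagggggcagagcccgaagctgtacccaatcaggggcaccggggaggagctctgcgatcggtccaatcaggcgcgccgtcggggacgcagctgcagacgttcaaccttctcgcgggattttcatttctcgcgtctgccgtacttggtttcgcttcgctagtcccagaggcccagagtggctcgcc
ZNF175, chr19:51571033-51571312, plus strand, no peak: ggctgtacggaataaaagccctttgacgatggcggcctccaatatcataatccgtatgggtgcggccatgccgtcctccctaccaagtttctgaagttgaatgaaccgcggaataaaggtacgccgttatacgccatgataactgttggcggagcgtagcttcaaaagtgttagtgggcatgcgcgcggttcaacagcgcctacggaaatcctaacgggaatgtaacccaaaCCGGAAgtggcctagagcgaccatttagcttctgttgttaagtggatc
ZNF737, chr19:20565752-20566031, minus strand, no peak: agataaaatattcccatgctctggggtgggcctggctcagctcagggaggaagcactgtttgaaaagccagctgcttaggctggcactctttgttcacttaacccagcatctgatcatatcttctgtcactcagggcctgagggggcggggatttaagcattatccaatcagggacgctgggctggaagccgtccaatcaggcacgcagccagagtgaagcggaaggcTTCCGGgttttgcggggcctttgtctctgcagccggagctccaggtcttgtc

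How often the chromosome 19 ZNF genes had a peak was compared with ZNF genes elsewhere and with their neighbours on the chromosome. Of the 240 genes 35 had one (14.6%, 95% Wilson interval 10.7 to 19.6%), against 33 of 237 ZNF genes on other chromosomes (13.9%, 10.1 to 18.9%) and 196 of 1211 other genes of chromosome 19 (16.2%, 14.2 to 18.4%). Over all 19974 protein-coding genes the share was 9.58%. The intervals cover counting error only and treat genes as independent, which tandem copies and genes sharing a peak are not. The intervals of the 3 groups overlap, and each lies above 9.58%. Overlap is not a test of a difference, and none was made. With only the upper 50% of peaks by fold, 15 chromosome 19 ZNF genes had a peak (6.25%), against 17 ZNF genes elsewhere (7.17%), 119 other genes of chromosome 19 (9.83%) and 5.49% of all genes. The interval of the chromosome 19 ZNF genes was then 3.82 to 10.1% and no longer lay above the share of all genes. The wide window counts differently for genes of different length and spacing: the chromosome 19 ZNF genes had a median length of 23130.5 bp and took their 35 calls from 36 peaks, while the other genes of the chromosome had a median length of 12798 bp and took 196 calls from 123 peaks.

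A narrower measure puts the summit within 1 kb of either end of the gene itself. By it 24 chromosome 19 ZNF genes had a peak (10.0%, 6.81 to 14.4%), against 27 ZNF genes elsewhere (11.4%, 7.95 to 16.1%) and 93 other genes of chromosome 19 (7.68%, 6.31 to 9.32%), with 5.86% over all protein-coding genes. RefSeq starts were listed for 210 of the 240 genes. Within 1 kb of the outermost listed start 23 of those 210 had a summit (11.0%, 7.41 to 15.9%), against 19 of 195 ZNF genes elsewhere (9.74%) and 66 of 975 other genes of the chromosome (6.77%), with 6.01% over all 15812 genes with a listed start. On both narrow measures the interval of the chromosome 19 ZNF genes lay above the share of all genes and overlapped that of their neighbours.

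**Figure D1:**
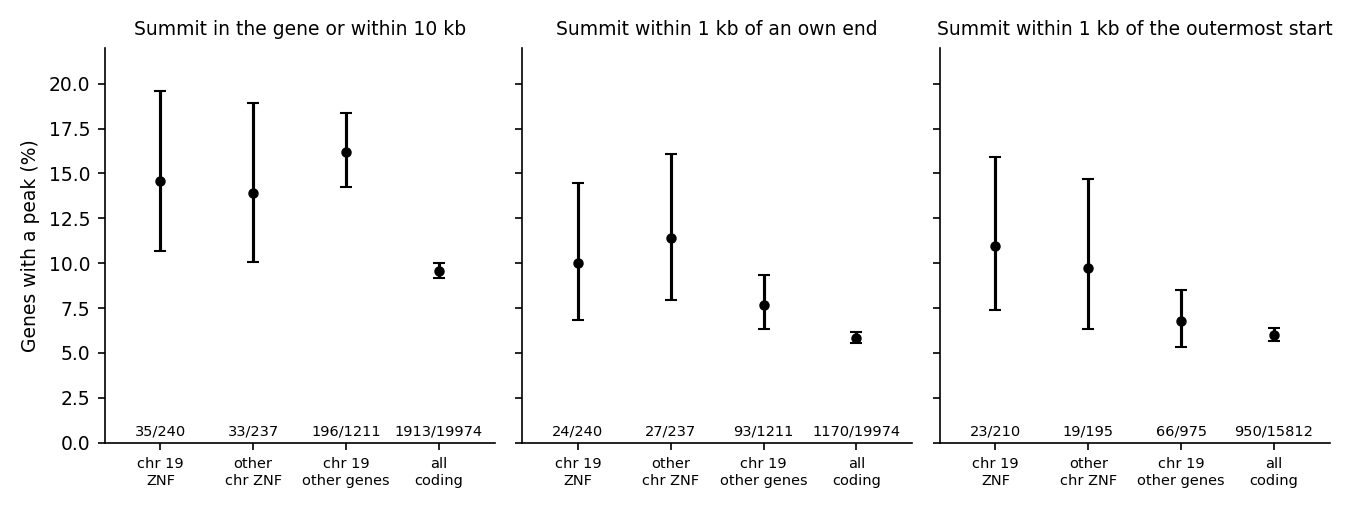
Share of genes with a peak (%, points, with 95% Wilson intervals) by 3 measures, for chromosome 19 ZNF genes, ZNF genes of other chromosomes, other genes of chromosome 19 and all protein-coding genes; the fractions give genes with a peak over genes counted. Chromosome 19 ZNF genes stand at 14.6, 10.0 and 11.0%, and their intervals overlap those of both comparison groups in each panel.

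The median fold at these genes was below those of the other groups, with overlapping intervals, and the difference was not tested. Fold enrichment is the authors' value, the signal at the summit over local background. The 36 peaks had a median fold of 4.29 (2.03 to 10.2), against 4.74 for the 34 peaks of ZNF genes elsewhere, 4.90 for the 123 peaks of other chromosome 19 genes and 4.66 for all 1564 peaks on chromosomes 1 to 22 and X. An interval of the median from order statistics was 3.92 to 4.95 for the chromosome 19 ZNF peaks, 4.43 to 5.45 for those of ZNF genes elsewhere and 4.48 to 5.18 for those of the other genes, all overlapping. Local background was recovered from fold and p-value. Its median was 5.55 fragments, against 3.45 and 4.40 in the comparison groups and 3.52 over all peaks. On a background over 2 times that last value, called raised here, lay 11 of the 36 peaks (30.6%), 3 of the 34 (8.82%) and 17 of the 123 (13.8%). Of the peaks counted for all protein-coding genes, 49 of 1287 were raised (3.81%). Among the 11, 8 were counted for the 25-gene cluster at chr19:11483429-12633834. Fold is taken over local background, so fold and background are not independent. With raised backgrounds left out, the median fold of the chromosome 19 ZNF peaks was 4.89. At own ends it was 4.66 without raised background and 3.20 on it. No such median was taken for the comparison groups, and the part of background in the folds was not tested. Without peaks of raised background 27 of the 240 genes had a peak (11.3%, 7.85 to 15.9%, an interval that includes the share of all genes), against 31 ZNF genes elsewhere (13.1%), 170 other genes of chromosome 19 and 9.23% of all genes.

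**Figure D2:**
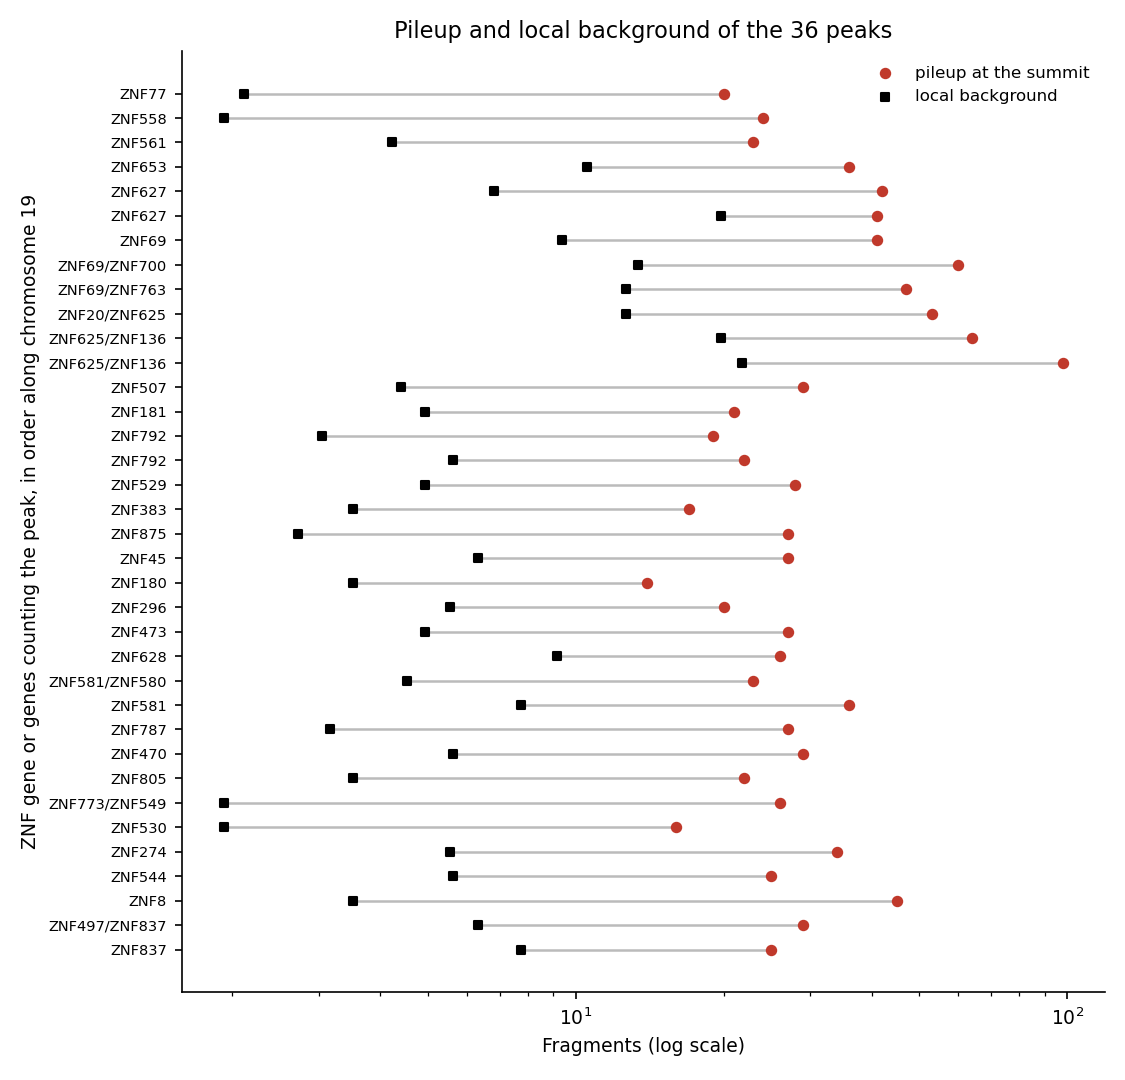
Pileup at the summit (circles) and local background (squares), both in fragments on a log axis, for the 36 peaks counted for chromosome 19 ZNF genes, in order along the chromosome. Backgrounds from ZNF653 to ZNF136 run from 6.82 to 21.8 fragments, and pileups are highest there, up to 98.

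Counts of peaks were also taken per cluster. Runs of 3 or more ZNF genes with at most 250 kb between neighbours gave 13 clusters with 226 of the 240 genes, and 14 genes stood apart. A peak was counted in 9 clusters, for 31 of their 150 genes, and in the other 4, with 76 genes, for none. Since the clusters are grouped here by that outcome, the counts are a description and no limit is given over the 4 together. Among the 4 is the second largest cluster, 39 genes at chr19:51571283-53580269. There a count of 0 allows a share of up to about 7.69%, taken as 3 divided by the number of genes. The others, of 8, 25 and 4 genes, stand next to each other at 19668153 to 20200488, 20530276 to 23395471 and 23652801 to 24129968. The same limit is 37.5, 12 and 75% in them. It is not a Wilson interval, and it is only rough for clusters of 8 and 4 genes. Between the summits at 19516399 and 24930163 lay 5.41 Mb with 37 of the ZNF genes and 8 other protein-coding genes and not a single listed summit. In the 39-gene cluster 1 of 16 other protein-coding genes had a peak.

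**Figure D3:**
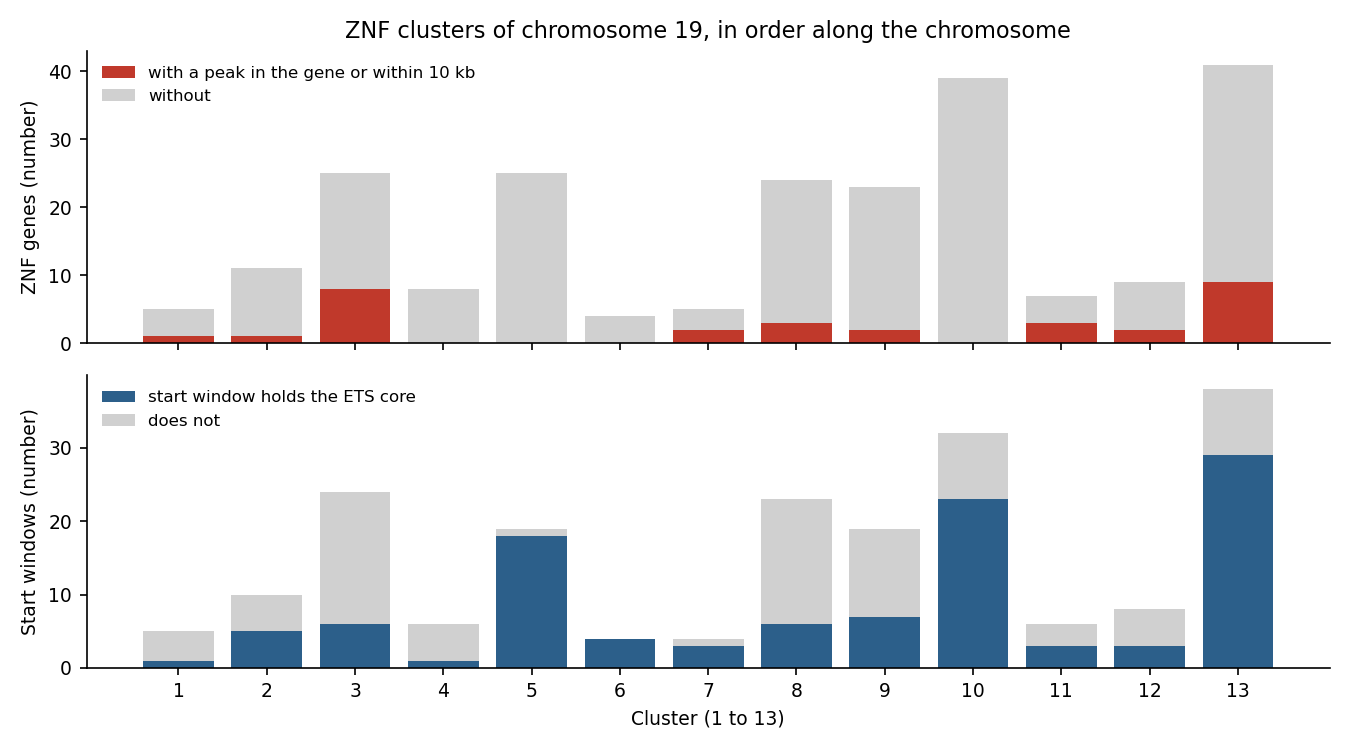
Upper panel, number of ZNF genes in each of the 13 clusters with (red) and without (grey) a peak by the 10 kb measure; lower panel, number of start windows that hold (blue) or lack (grey) CCGGAA. Clusters 4, 5, 6 and 10 have no gene with a peak, while 46 of their 61 windows hold the core. In cluster 13, where 9 genes have a peak, 29 of 38 windows hold it.

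Of the 4 clusters without a peak, 3 held ETS cores at most of their starts. The letters CCGGAA, searched on both strands of the whole window from 250 bases before to 50 after the outermost listed start, were in 114 of 210 windows of chromosome 19 ZNF genes (54.3%), against 91 of 195 for ZNF genes elsewhere (46.7%), 217 of 975 for other genes of the chromosome (22.3%) and 22.7% of all 15812 windows. In the 4 clusters without a peak 46 of 61 windows held it (75.4%), against 63 of 137 in the 9 clusters with a peak (46.0%). Single clusters with a peak ran from 20.0% to 76.3%. The highest share was 29 of 38 windows in the 41-gene cluster, where 9 genes had a peak. In the neighbouring 25-gene and 4-gene clusters it was in 18 of 19 and 4 of 4 windows, and in the 8-gene cluster beside them in 1 of 6. A match is only these letters in this window and does not mark a bound site.

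Over all genes the core went with peaks, and for ZNF genes of chromosome 19 the shares were closer together. A summit lay within 1 kb of the start for 14 of the 114 chromosome 19 ZNF genes whose window held CCGGAA (12.3%, 7.46 to 19.6%), against 9 of the 96 whose window lacked it (9.38%, 5.01 to 16.9%). For ZNF genes elsewhere these were 17 of 91 with the core (18.7%) and 2 of 104 without it (1.92%), and over all genes 14.7% of 3590 with it and 3.47% of 12222 without it. With the 4 clusters without a peak left out, chosen for that, the shares for chromosome 19 ZNF genes were 14 of 68 with the core (20.6%) and 9 of 81 without it (11.1%). The difference between the groups was not tested.

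The letters after the core differed between clusters, a split looked at after the data were seen. CCGGAAGT was in 40 of 210 chromosome 19 ZNF windows, against 6.17% of all windows, and CCGGAAGC in 49 (23.3%), against 5.18% of all. CCGGAAGT was most common in the 41-gene cluster at the end of the chromosome, in 21 of 38 windows. CCGGAAGC made up most matches in clusters without a peak, with 16 of 19 windows in the 25-gene cluster, 4 of 4 in the 4-gene cluster and 15 of 32 in the 39-gene cluster. A summit within 1 kb of the start went with 7 of the 40 windows with CCGGAAGT (17.5%) and 2 of the 49 with CCGGAAGC (4.08%), while over all genes the shares were 21.6% and 19.5%. Of those 49 windows 36 lie in the clusters without a peak, and outside them it was 2 of 13 (15.4%). Of 6 windows with CCGGAAGG and 3 with CCGGAAGA, 2 each had a summit.

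Windows of the clusters differed in other properties too. In the 3 neighbouring clusters without a peak, 25 of 29 windows shared at least 31 letters in a row with the start window of another gene (86.2%). Over all windows this was 5.06%. Pairs with starts within 1 kb of each other were left out, while other copies in the same cluster counted. The rest of the genome was not searched. In the 39-gene cluster 8 of 32 did. In the 9 clusters with a peak 13 of 137 did, of which 8 of 24 were in the cluster of 25 genes where 8 had a peak. The treatment of reads that align to several places is not stated in the labels. The median number of CpG pairs per window was 10 in each of the 3 neighbouring clusters and 25 in the 39-gene cluster, against 22 over all genes, so it was low in 3 of the 4 clusters without a peak and not in the largest of them. It was 16 in the cluster of 25 genes where 8 had a peak, below all genes as well. The part of either property in the absence of peaks was not tested.

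At the starts that had a peak, summits lay mainly just inside the gene. Where several summits lay within 1 kb of a start, only the nearest was used. The summit was downstream of the start at 21 of 23 chromosome 19 ZNF genes (91.3%, 73.2 to 97.6%), with a median of 153 bp. One of the 21, ZNF627, was counted by a weak peak 261 bp into the gene (fold 2.03, −log10 q 1.63). Its stronger peak (fold 5.50, −log10 q 14.9) lay 464 bp before the start. It was downstream at 10 of 19 ZNF genes elsewhere (52.6%, 31.7 to 72.7%), with a median of 33 bp, at 41 of 66 other genes of the chromosome (62.1%, 50.1 to 72.9%), with a median of 54 bp, and at 61.2% of all 950, with a median of 92.5 bp. The interval of the chromosome 19 ZNF genes does not overlap the other 3, but its lower limit of 73.2% is barely above 72.9%. It includes the weak ZNF627 call. With the stronger ZNF627 peak that gene would not count as downstream, and the interval was not recomputed. No test was made, and neighbouring copies are not independent. Counted from the nearest listed start instead, the summit was downstream at 23 of 25 chromosome 19 ZNF genes (92.0%), against 10 of 20 ZNF genes elsewhere, 47 of 78 other genes of the chromosome and 56.9% of all 1013. With raised backgrounds left out it was downstream at 13 of 15 chromosome 19 ZNF genes (86.7%, 62.1 to 96.3%), an interval that overlaps those of the other groups. That count leaves out ZNF627, although its peak before the start was not on raised background.

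The place of the summit differed with the core in the window. At the 14 genes whose window held CCGGAA the summit was a median of 87.5 bp from the start (80 bp before it to 598 bp after), and within 100 bp of it at 9. At the 9 whose window lacked it the summit was a median of 213 bp into the gene (153 to 375 bp), and within 100 bp at 0. The searched window ends before all of these 9 summits, and before some of the 14. Whether a core stands under the 9 summits was therefore not tested. Over all genes 29.7% of those with the core and 9.91% of those without it had the summit within 100 bp of the start. Local background moved with this too: it was raised at 3 of the 14 and at 5 of the 9.

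**Figure D4:**
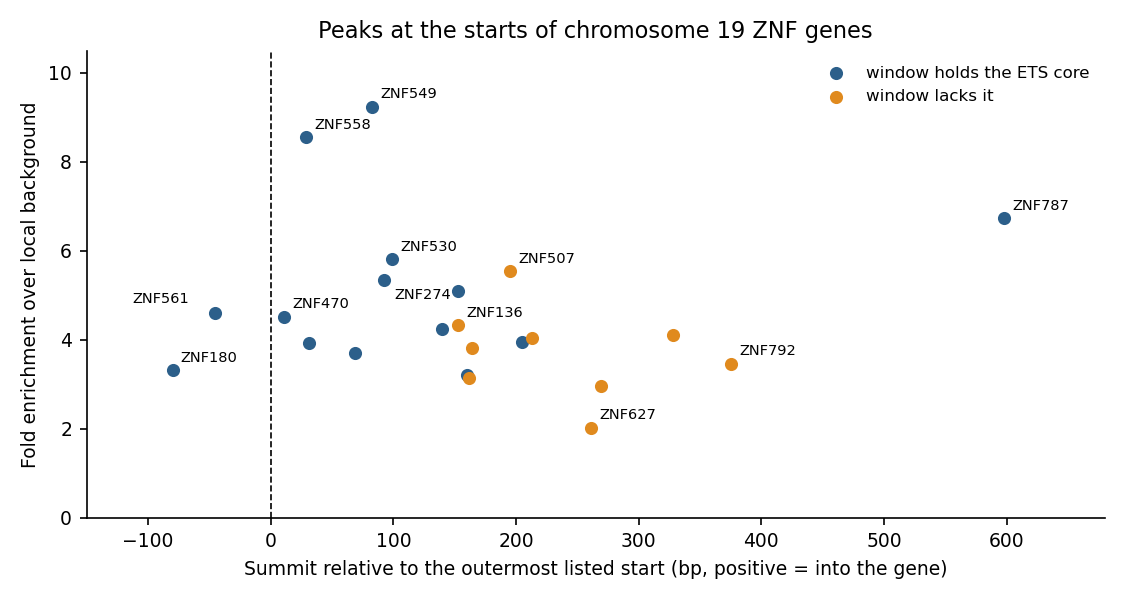
Fold enrichment against the distance of the nearest summit from the outermost listed start (bp, positive into the gene). Shown are the 23 chromosome 19 ZNF genes with a summit within 1 kb of that start, blue where the window holds CCGGAA and orange where it lacks it. All orange points lie 153 to 375 bp into the gene, while 9 of the 14 blue points lie within 100 bp of the start. The searched window ends before all orange points, so the sequence under them was not searched.

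The strongest peak at a start of a chromosome 19 ZNF gene was that of ZNF549. Its peak at chr19:57527320-57527692 had a fold of 9.25, from a pileup of 26 fragments on a background of 1.92. The summit lay 83 bp into the gene, and the window holds 3 cores, the last of them 38 bases past the start and beyond the printed stretch. The same peak was counted for ZNF773, whose nearer end is 9002 bp away. ZNF558, a KRAB zinc finger gene, had a fold of 8.56 (pileup 24, background 1.92) at chr19:8832035-8832555. Its summit was 29 bp from the outermost listed start but not within 1 kb of an end of the annotated gene, and it was within 1 kb of an end of MBD3L1, related to the methyl-CpG-binding protein MBD3. ZNF875 likewise had a fold of 7.53 inside the gene, 102 bp from a further listed start. ZNF787 followed with 6.73, at 598 bp the farthest from its start among the 23 summits within 1 kb of an outermost start.

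In the 41-gene cluster at chr19:57191500-58489533, 9 genes had a peak and 7 had it at an own end. After ZNF549 came ZNF530, with a fold of 5.82 and the summit 99 bp into the gene. ZNF274, whose KRAB protein is known to bring SETDB1 to the 3′ ends of other zinc finger genes, had a fold of 5.34 at 92 bp, with a pileup of 34 fragments and a core 10 bases past its start. ZNF805 had 5.09 and ZNF544 3.92. ZNF497 had a fold of 4.10, with the summit 328 bp into the gene, and ZNF837, which also counted that peak, had one of its own of 2.97 at 269 bp on a raised background of 7.74 fragments. The highest fold counted in the cluster, 10.2 with a pileup of 45, was credited to ZNF8 but lay 2556 bp outside that gene, within 1 kb of an end of ERVK3-1.

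The cluster of 25 genes at chr19:11483429-12633834 had 8 genes with a peak, 7 of them at an own end, and its peaks stood on raised background. Its 9 peaks had a median background of 12.7 fragments (6.82 to 21.8), and 8 of the 9 were raised. The highest pileup of any chromosome 19 ZNF peak, 98 fragments, was at ZNF136 on a background of 21.8, which gave a fold of 4.34. Next to it ZNF625 had 64 fragments on 19.7 (fold 3.14) and ZNF20 had 53 on 12.7 (fold 3.95). ZNF700 had 60 on 13.4 (fold 4.24), ZNF69 had 41 on 9.38 (fold 4.05) and ZNF653, a corepressor gene, had 36 on 10.6 (fold 3.20).

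High pileup in this cluster thus went with high background, and the folds stayed between 2.03 and 5.50. ZNF627 shows both at its 2 peaks: 464 bp before its start the fold was 5.50 (42 fragments on 6.82), and 261 bp into the gene it was 2.03 (41 fragments on 19.7). Around the cluster a run of 19 neighbouring peaks, with summits from 10106472 to 12163249, was delimited as peaks that all exceed 1.5 times the median background. It holds the 9 peaks of the cluster and 10 others, which had 6.13 to 11.3 fragments of background, and 6 of the 10 were raised. A peak was counted for 8 of the 25 genes of the cluster (32.0%), against 27 of the 215 ZNF genes elsewhere on the chromosome (12.6%). With raised backgrounds left out, a setting added after the data were seen, 1 of the 25 kept a peak (4.00%, 0.710 to 19.5%). Of the 215, 26 kept one (12.1%, 8.39 to 17.1%), and these intervals overlap. Since 8 of the 9 peaks of the cluster were raised, leaving such peaks out had to lower its count. The 2 shares are therefore no result about the cluster.

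Of the remaining genes with a peak, most had it at or near the start with folds of 3 to 7. ZNF507, which stands apart from the clusters, had a fold of 5.55 at 195 bp into the gene. ZNF473, which encodes a protein of histone pre-mRNA processing, had 4.72 at a site it shares with VRK3, and no start was listed for it. ZNF561 had 4.59, ZNF470 had 4.52 with the summit 11 bp from its start and 4.5 bp from the middle of the nearest core, and ZNF529 had 4.89 at 75 bp from a further listed start. ZNF45 (3.82), ZNF181 (3.71) and ZNF180 (3.32) had theirs within 164 bp of the start. The ZNF180 peak had the lowest pileup of the 36, 14 fragments, with a −log10 q of 1.82. ZNF792 had 2, of 3.47 at 375 bp from its start and of 4.95 farther inside. ZNF77 (6.75), ZNF383 (3.98), ZNF296 (3.20) and ZNF763 (3.51) counted peaks outside the gene and at no end of a protein-coding gene.

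Some peaks were counted for several genes. Of the 36 peaks 28 were counted for 1 ZNF gene and 8 for 2 of them, and no peak lay within 1 kb of ends of 2 ZNF genes. With ends of any protein-coding gene, 4 of the 36 peaks were shared (11.1%, 4.41 to 25.3%), against 6 of 34 at ZNF genes elsewhere (17.6%), 22 of 123 at other chromosome 19 genes (17.9%) and 216 of 1287 at all genes (16.8%), a share within that interval. The 4 become 1 with 500 bp and 7 with 3 kb in place of 1 kb. The 4 were at ZNF653 with ECSIT, an adaptor of innate immune signalling, at ZNF473 with VRK3, at ZNF628 with NAT14 and at ZNF470 with ZNF470-DT, which the annotation lists as protein-coding. An end of a noncoding gene also stood within 1 kb of 6 peaks at a ZNF gene's own end: ZNF561-AS1, ZNF45-AS1, ZNF497-AS1, the readthrough gene ZNF625-ZNF20, and LOC genes at ZNF792 and ZNF787. Peaks with ends of both kinds of gene within 1 kb were 16.7% of the 36, against 32.4% at ZNF genes elsewhere, 12.2% at other chromosome 19 genes and 19.1% at all genes. ZNF69 and ZNF625 had 3 peaks each, in part through their neighbours ZNF700, ZNF763, ZNF20 and ZNF136, and ZNF627, ZNF136, ZNF792, ZNF581 and ZNF837 had 2.

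For 11 of the 35 genes no peak lay at an end of their own. ZNF580 and ZNF581 counted a peak of 4.33 fold at an end of CCDC106, and ZNF581 another of 4.23 at an end of U2AF2, which encodes a splicing factor. By distance, ZNF763 (7242 bp) and ZNF773 (9002 bp) were the last counted and ZNF844 (11006 bp) and ZNF444 (11856 bp) the first left out. Among the 205 genes without a peak, the longest were ZNF536, ZNF420 and ZNF254, of 487995, 122467 and 96520 bp, and the shortest ZNF524, ZNF784 and ZNF579, of 3565 to 4075 bp.

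Partners and relatives of these genes were counted in the same way. Of 21 genes for proteins that act with KRAB zinc fingers in silencing, 3 had a peak (14.3%, 4.98 to 34.6%, an interval that includes the 9.58% of all genes): HDAC1, a histone deacetylase gene (fold 4.05), DNMT1, the maintenance DNA methyltransferase gene (5.83), and TRIM28. The HDAC1 and DNMT1 peaks were 168 and 290 bp from an end of the gene, and the DNMT1 peak stood on a raised background of 7.74 fragments in the same stretch as that of the 25-gene cluster with 8 such genes. The 3 peaks counted for TRIM28 (folds 5.82, 5.03 and 3.62) were 4279 to 9098 bp from its ends, and the first lay at ends of CHMP2A and UBE2M. SETDB1 and the heterochromatin protein genes CBX1, CBX3 and CBX5 had none. Among 13 chromosome 19 relatives with ZFP, ZSCAN, ZIM and similar symbols, 4 had a peak (30.8%, 12.7 to 57.6%). That interval lies above the 9.58% of all genes but includes the 16.2% of chromosome 19 genes other than ZNF. Of the 4, only ZFP14 (5.40, 138 bp away) had it at an own end. ZFP82, ZIK1 and MZF1 counted peaks at ends of neighbours or between genes, that of ZFP82 being the ZFP14 peak and that of ZIK1 the ZNF530 peak.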

How the data were processed

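Chromatin immunoprecipitation followed by sequencing was made in F36P cells, with 1 library for AM-ERG and 1 for Vector. Per the submitters' processing notes, Bowtie2, MACS2 and deepTools were used with hg38, with no version or setting. The deposited list of 1645 narrow peaks holds, per peak, the authors' MACS2 score, fold enrichment, −log10 p and −log10 q values, and the summit. Only the 1564 peaks on chromosomes 1 to 22 and X were used. Read depth is unknown, and what each library contributed is not stated.

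Summits were set against protein-coding genes of RefSeq GRCh38.p14, the same primary coordinates as hg38, with Python 3.11.15, pandas 2.3.3, NumPy 2.4.6 and SciPy 1.17.1. The whole pileup and the local background were recovered from fold and p-value as a Poisson tail with 1 added to both values. The recovered p-value matched the deposited −log10 p within 0.001 for 100% of peaks. On simulated peaks 300 of 300 pairs were recovered, and 200 of 200 peaks were given to the right gene. RefSeq start windows, listed for 210 of the 240 genes, gave the sequences, and the outermost start was used.

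No test was possible with 1 library per group, so counts carry 95% Wilson intervals of counting error only. The genes and the lists were chosen with earlier results of these data known. Named were the 12 highest folds at an own end, genes with several or shared peaks, the highest per cluster, and the 3 longest and 3 shortest without a peak; other genes were named after their values were seen. Alternatives changed the distance, the peak threshold, the assignment, the cluster gap, the motif and the start used.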

Additional observations from a re-analysis of the deposited data

How the results depend on the processing

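No paired analysis was possible because AM-ERG and Vector are single libraries and the list has no values per library. Of 41 alternative settings 24 left their count or median within 1.5 times the reported value, or the median fold within the spread of the folds, and 17 moved it further; the cause was not tested. With the upper 50% of peaks by fold, 15 chromosome 19 ZNF genes had a peak (6.25%), against 17 ZNF genes elsewhere (7.17%), 119 other chromosome 19 genes (9.83%) and 5.49% of all genes. With the upper 50% by −log10 q, 25 chromosome 19 ZNF genes had one (10.4%), against 14 ZNF genes elsewhere (5.91%), 128 other chromosome 19 genes (10.6%) and 5.0% of all genes, and 16 peaks in place of 25 lay within 1 kb of an end of a chromosome 19 ZNF gene. In the gene body alone 24 chromosome 19 ZNF genes had a peak (10.0%), against 19 ZNF genes elsewhere (8.02%), 86 other chromosome 19 genes (7.10%) and 5.0% of all genes. Within 1 kb of an end 24 chromosome 19 ZNF genes had a peak (10.0%), against 27 ZNF genes elsewhere (11.4%), 93 other chromosome 19 genes (7.68%) and 5.86% of all genes. Within 25 kb 50 did (20.8%), against 299 (24.7%) and 13.1% of all genes, and with each peak given to the gene with the nearest end 29 did (12.1%), against 105 (8.67%) and 6.20% of all genes. Peaks shared between ends of protein-coding genes numbered 1 within 500 bp and 7 within 3 kb. Windows of chromosome 19 ZNF genes holding CCGGAAGT numbered 40, and those holding GGAA 206. Clusters split at gaps of 100 kb or 500 kb had a peak in 9 of 17 and 8 of 10. The settings chosen after the data were seen gave CCGGAA in any listed window at 121 genes, and a summit downstream of the nearest start at 23 genes, or of the outermost one at 13 without raised backgrounds, where 1 gene of the 25-gene cluster with 8 kept a peak. The unknown depth limits every absence of a peak: no listed summit is not shown to be no binding.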
